A study of Homo sapiens and Mus musculus with 24 samples.

Results

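Matrix metalloproteinases (MMPs) and ADAMTS enzymes are zinc proteases that cut or process the extracellular matrix, and TIMPs are their secreted protein inhibitors. All 51 mouse genes whose symbol is Mmp, Adamts, Adamtsl or Timp followed by a number were taken from the 39089 genes of a table of cancer-associated fibroblasts (CAFs), as 23 Mmp, 19 Adamts, 5 Adamtsl and 4 Timp genes. They were chosen by symbol, not by level. 33 of them (15 Mmp, 11 Adamts, 4 Adamtsl and 3 Timp genes) reached 1 TPM (a level of transcripts corrected for gene length and library size) in at least 2 libraries and were tested, and the other 18 are described last.

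The study sequenced RNA of 24 libraries, of which the 10 used here form 5 CAF groups of 2. The fibroblasts of 4 groups came from mice with Trp53PC-/- as part of their labelled genotype and were collected at day 7 after the vehicle DMSO, 1 µM enzalutamide (an antagonist of the androgen receptor), 5 ng/ml TGF-β1 (a cytokine that activates fibroblasts), or both agents. The fifth group came from ADT mice of the same genotype, received no treatment and was collected at day 0. The labels do not spell out ADT, give the genotype field of all these libraries as WT and call the cells stroma. The mice of all groups share this genotype, in which the labels do not spell out PC, so no group gives the level in fibroblasts of another genotype. The ADT group differs from the DMSO group in mouse, vehicle and day, and these cannot be told apart. The labels state 2 biological replicates per condition for the treatments but not whether each came from a separate mouse, so the tests measure the spread between these libraries, which may be technical.

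The libraries held 17390535 to 21063026 reads, as recovered from the steps of the TPM values. Per gene, the libraries labelled with both agents differed from the ADT libraries by a mean chi-square of 1.86 to 2.66. Counting error alone gives 1, libraries of the same group gave 1.39 to 1.69, and the other pairs of groups gave 37.4 to 288. Whether their label is right was not tested, so the libraries that resemble the ADT group are called "labelled with both agents". The groups are described chiefly by DMSO, enzalutamide, TGF-β1 and ADT. Fkbp5 and Acta2 were read as checks of the treatment labels. Fkbp5, a target of the androgen and glucocorticoid receptors, fell with enzalutamide from 21.0 to 16.4 TPM (log2 difference -0.33). It was 66.0 TPM with TGF-β1 and 74.8 TPM in the ADT group, so it did not vary with enzalutamide alone. Acta2, the smooth muscle actin of activated fibroblasts, fell with TGF-β1 from 5388 to 3998 TPM (log2 difference -0.43). These values do not settle whether the labels are right. In the DMSO columns 57 genes had values that were whole reads only after division by 0.3, none of them among the 40 members whose reads could be recovered. Of 10 fibroblast markers, 9 or 10 reached 1 TPM in each group, at a summed 10673 to 14100.1 TPM, against 1 or 2 of 10 epithelial markers. The epithelial markers summed to 25.8 to 26.3 TPM in the ADT and 19.7 to 20.2 TPM in the DMSO libraries, and fat markers to at most 0.188 TPM in any library. Summed markers of 4 other cell types were lower in the ADT than in the DMSO libraries: 471 to 475 against 1152 to 1163 TPM for smooth muscle and pericyte, 29.0 to 29.5 against 107 to 109.6 TPM for macrophage and leukocyte (the T cell marker Cd3e was under 0.1 TPM in every library), 1.30 to 1.76 against 15.1 to 16.6 TPM for endothelial, and 0.850 to 0.893 against 9.84 to 11.1 TPM for glial markers. Their part in the results below was not tested, and in such bulk samples fewer cells of a type and less RNA per cell cannot be told apart.

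MMPs are made as inactive precursors and are grouped into classes, among them collagenases, gelatinases, stromelysins and the membrane-anchored forms. ADAMTS enzymes cut proteoglycans such as versican and aggrecan or trim procollagen, and the ADAMTS-like proteins share their matrix-binding domains but lack the protease. TIMP proteins block MMPs and, in the case of TIMP3, several ADAMTS enzymes as well. In tumors, fibroblasts are a main source of these enzymes, and TGF-β is a known regulator of several of them.

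Expression of the families moved apart between the groups. The 23 Mmp genes summed to 998 and 997 TPM in the DMSO libraries, 787 and 808 TPM with enzalutamide, 1092 and 1084 TPM with TGF-β1, and 1569 and 1599 TPM in the ADT libraries. The 19 Adamts genes summed to 729.8 and 722 TPM with DMSO, 313 and 319 TPM with enzalutamide, 185 and 189.6 TPM with TGF-β1, and 231 and 236 TPM in the ADT libraries. The Timp genes, whose RNA was the most abundant, summed to 4508 and 4510.5 TPM with DMSO, 6229 and 6368 TPM with enzalutamide, 9528 and 9559 TPM with TGF-β1, and 1729.7 and 1693 TPM in the ADT libraries. Among the groups just listed, summed Timp RNA was thus highest with TGF-β1 and lowest in the ADT group, while summed Mmp RNA was highest in the ADT group. The ratio of summed Mmp to summed Timp TPM was 0.221 in each DMSO library, 0.126 and 0.127 with enzalutamide, 0.115 and 0.113 with TGF-β1, and 0.907 and 0.945 in the ADT libraries. These are sums of RNA levels and say nothing of enzyme activity.

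**Figure D1:**
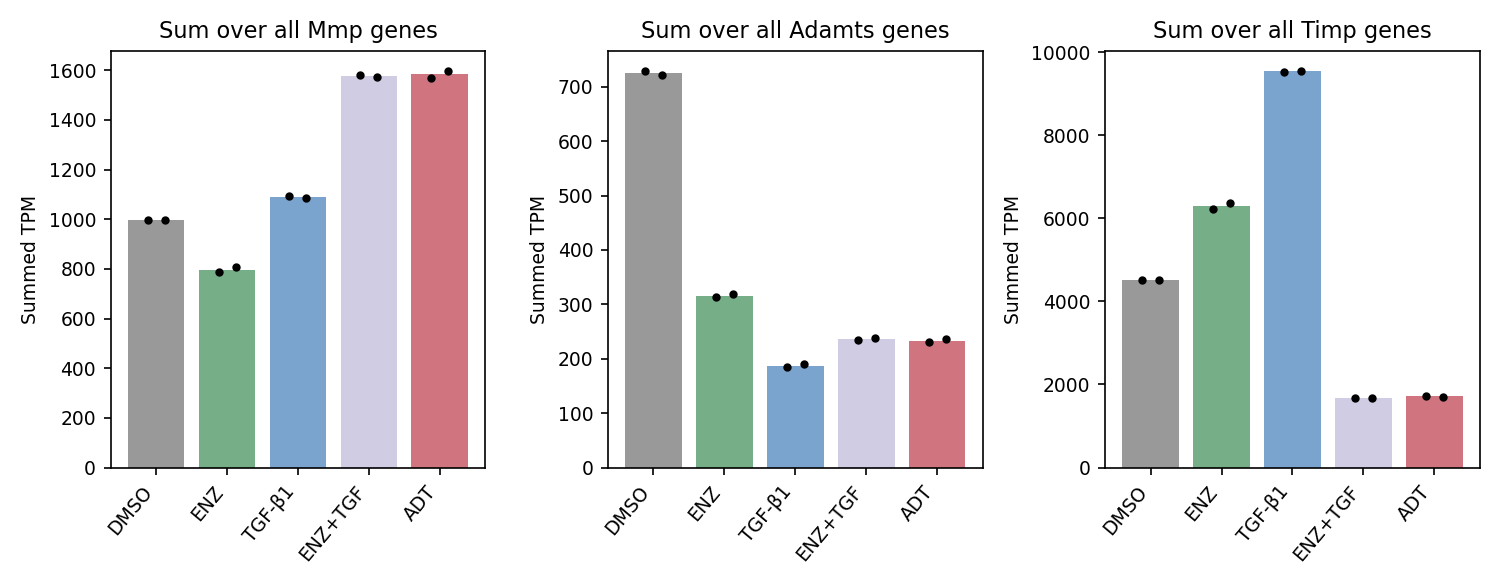
Summed TPM of all Mmp, Adamts and Timp genes in the 5 fibroblast groups; bars are means, points the 2 libraries, and axes start at 0. Summed Timp RNA ran from 1669.7 TPM in the libraries labelled with both agents to 9544 TPM with TGF-β1, and was 1711 TPM in the ADT group. Summed Adamts RNA was highest with DMSO, at 726 TPM.

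Most tested members differed from DMSO in each treatment. With enzalutamide, 6 rose and 15 fell (18.2% and 45.5% of the 33; 9.83% and 15.2% of all 14828 genes tested were called higher and lower, 25.0% in either direction), with a median log2 difference of -0.21 against -0.012 over all genes. With TGF-β1, 9 rose and 22 fell (27.3% and 66.7%; 19.0% and 34.6% of all genes, 53.6% in either direction), with a median of -0.45 against -0.10. In the ADT group, 10 were higher and 21 lower than with DMSO (30.3% and 63.6%; 31.5% and 43.3% of all genes, 74.8% in either direction), with a median of -0.54 against -0.13. Higher calls in the ADT group were thus as frequent among the members as among all genes. A call is an adjusted p under 0.05 by limma over all genes, and differences are of log2(TPM + 1), which understates changes of low genes. Scaling by the median of ratios moved the median of all genes from -0.13 to 0.0052 in the ADT group and, with TGF-β1, the split of all calls from 2816 higher and 5137 lower to 3944 and 3828. The split of all calls in the ADT group went from 4668 higher and 6423 lower to 5693 and 5322. The members had 10 higher and 20 lower calls with TGF-β1, and 12 higher and 20 lower in the ADT group, under that scaling.

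**Figure D2:**
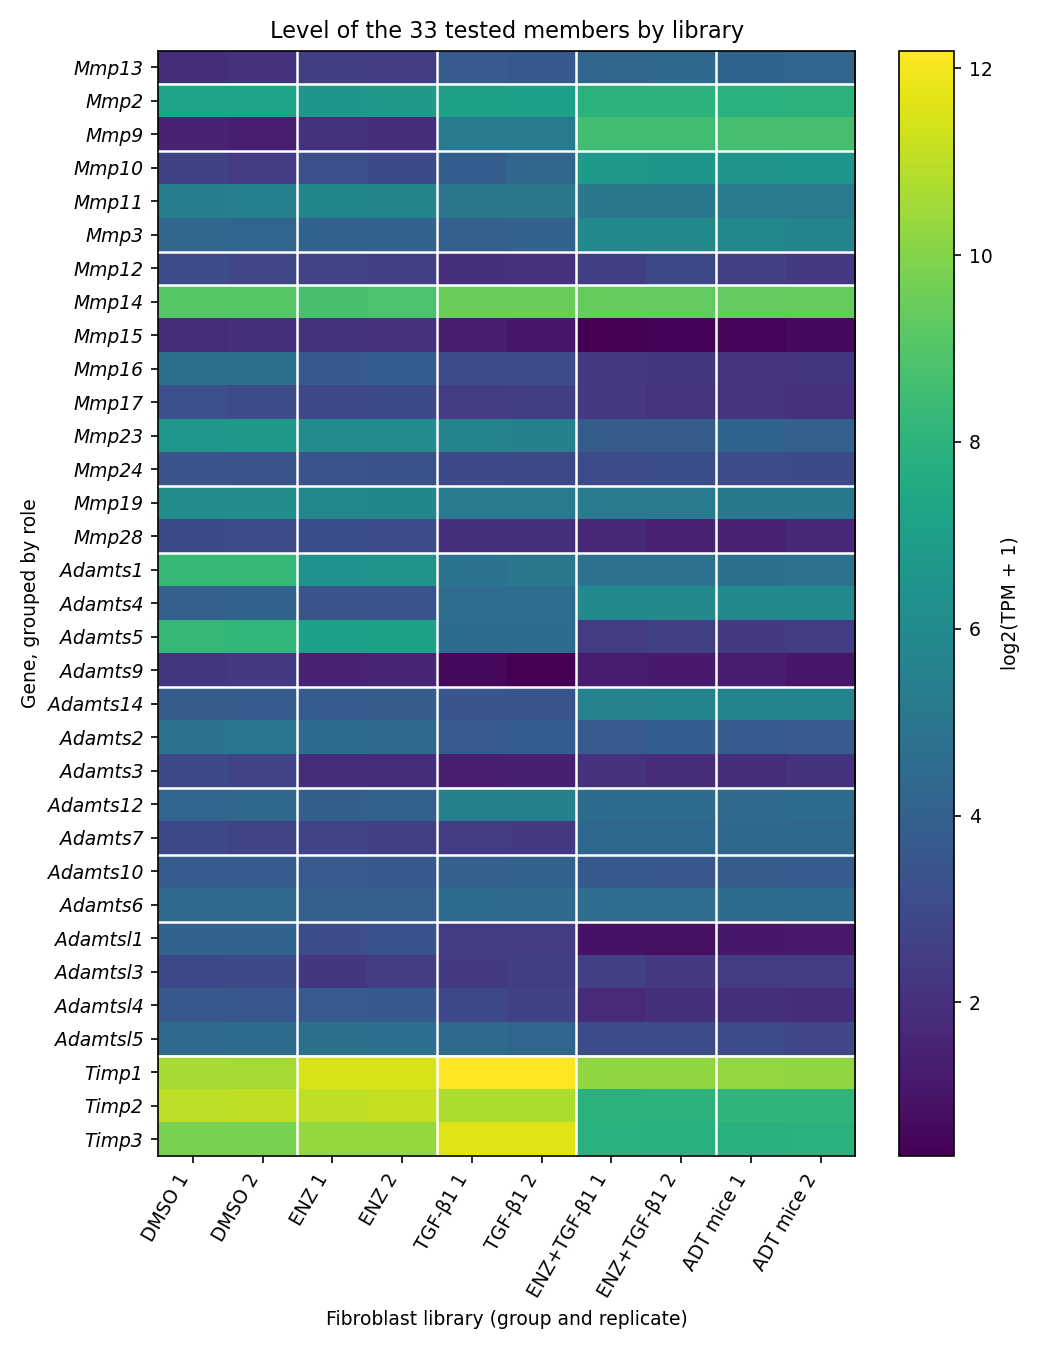
Heat map of log2(TPM + 1) for the 33 tested members (rows, grouped by role, with lines between the roles) in the 10 libraries (columns). The libraries of a group look alike, the last 4 columns (both agents as labelled, and ADT mice) look alike too, and the Timp rows are the brightest in the first 6 columns.

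Timp1, the soluble inhibitor that also binds the precursor of MMP9, was measured at 1573 and 1528 TPM with DMSO, 2806 and 2861 TPM with enzalutamide, 4665 and 4661 TPM with TGF-β1, and 1219 and 1184 TPM in the ADT libraries. None of these groups overlapped. It rose 1.83-fold with enzalutamide (log2 0.87, SE 0.0191, adjusted p = 4.8e-08) and 3.01-fold with TGF-β1 (log2 1.59, SE 0.0191, adjusted p = 5.8e-10), and was 1.29-fold lower in the ADT group (log2 -0.37, SE 0.0191, adjusted p = 4.7e-07). Timp3, the inhibitor that binds to the matrix, followed the same order with a wider range. Its values were 877 and 865 TPM with DMSO, 1278 and 1259.8 TPM with enzalutamide, 3174 TPM in each TGF-β1 library, and 234 and 237 TPM in the ADT libraries. The log2 differences of Timp3 from DMSO were 0.54 (SE 0.0171, adjusted p = 3.1e-07) with enzalutamide, 1.87 (3.65-fold higher, adjusted p = 1.1e-10) with TGF-β1 and -1.88 (3.70-fold lower, adjusted p = 4.1e-11) in the ADT group.

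Timp2, which both inhibits MMPs and takes part in the activation of pro-MMP2 by MMP14, did not follow this order. It stood at 2059 and 2118 TPM with DMSO, 2145 and 2248 TPM with enzalutamide, 1689 and 1724 TPM with TGF-β1, and 277 and 271 TPM in the ADT libraries. The enzalutamide difference was not called (log2 0.073, SE 0.0279, adjusted p = 0.098). Timp2 fell 1.22-fold with TGF-β1 (log2 -0.29, adjusted p = 5.3e-05) and was 7.62-fold lower in the ADT group (log2 -2.92, SE 0.0279, adjusted p = 4.9e-11). The most abundant Timp RNA was therefore Timp2 with DMSO and Timp1 in the other groups. Timp1 and Timp3 lie inside the synapsin genes Syn1 and Syn3, and the sources used here do not state whether the counting used strand. Syn1 was at most 14.5 TPM and Syn3 at most 0.196 TPM in these libraries.

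Mmp9, gelatinase B, showed the largest difference of the tested members. It was 1.84 and 1.53 TPM with DMSO (46 and 34 reads), 3.32 and 2.76 TPM with enzalutamide, 38.3 and 37.5 TPM with TGF-β1, and 409 and 410.2 TPM in the ADT libraries (10633 and 11035 reads). The 4 groups did not overlap and followed each other in that order. Relative to DMSO it rose 1.80-fold with enzalutamide (log2 0.59, SE 0.0731, adjusted p = 0.00079) and 22.5-fold with TGF-β1 (log2 3.86, SE 0.0731, adjusted p = 6.3e-09), and was 242-fold higher in the ADT group (log2 7.26, SE 0.0731, adjusted p = 6.3e-11). Its share of all Mmp RNA was 0.169% ± 0.0221 (SD, n = 2) with DMSO and 25.8% ± 0.267 in the ADT group. Neutrophils and macrophages are known sources of MMP9. Summed neutrophil markers were 8.92 to 10.2 TPM with DMSO and 1.62 to 1.71 TPM in the ADT libraries, and the macrophage and leukocyte markers are given above. Their part in the Mmp9 difference was not tested.

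Mmp2, gelatinase A, the constitutive gelatinase of fibroblasts, moved over a much smaller range. Its values were 149 TPM in each DMSO library, 97.3 and 106 TPM with enzalutamide, 134 and 131 TPM with TGF-β1, and 239 and 252 TPM in the ADT libraries. It fell 1.46-fold with enzalutamide (log2 -0.54, SE 0.0446, adjusted p = 7.7e-05) and was 1.65-fold higher in the ADT group (log2 0.72, SE 0.0446, adjusted p = 1.4e-06). The small fall with TGF-β1 (log2 -0.17, adjusted p = 0.013) was not called under median-of-ratios scaling (-0.061, adjusted p = 0.27), without DMSO library 1 (-0.17, adjusted p = 0.053) or without TGF-β1 library 2 (-0.15, adjusted p = 0.066). In the ADT group Mmp9 RNA exceeded Mmp2 RNA, whereas in the other 3 groups Mmp2 was the more abundant.

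**Figure D3:**
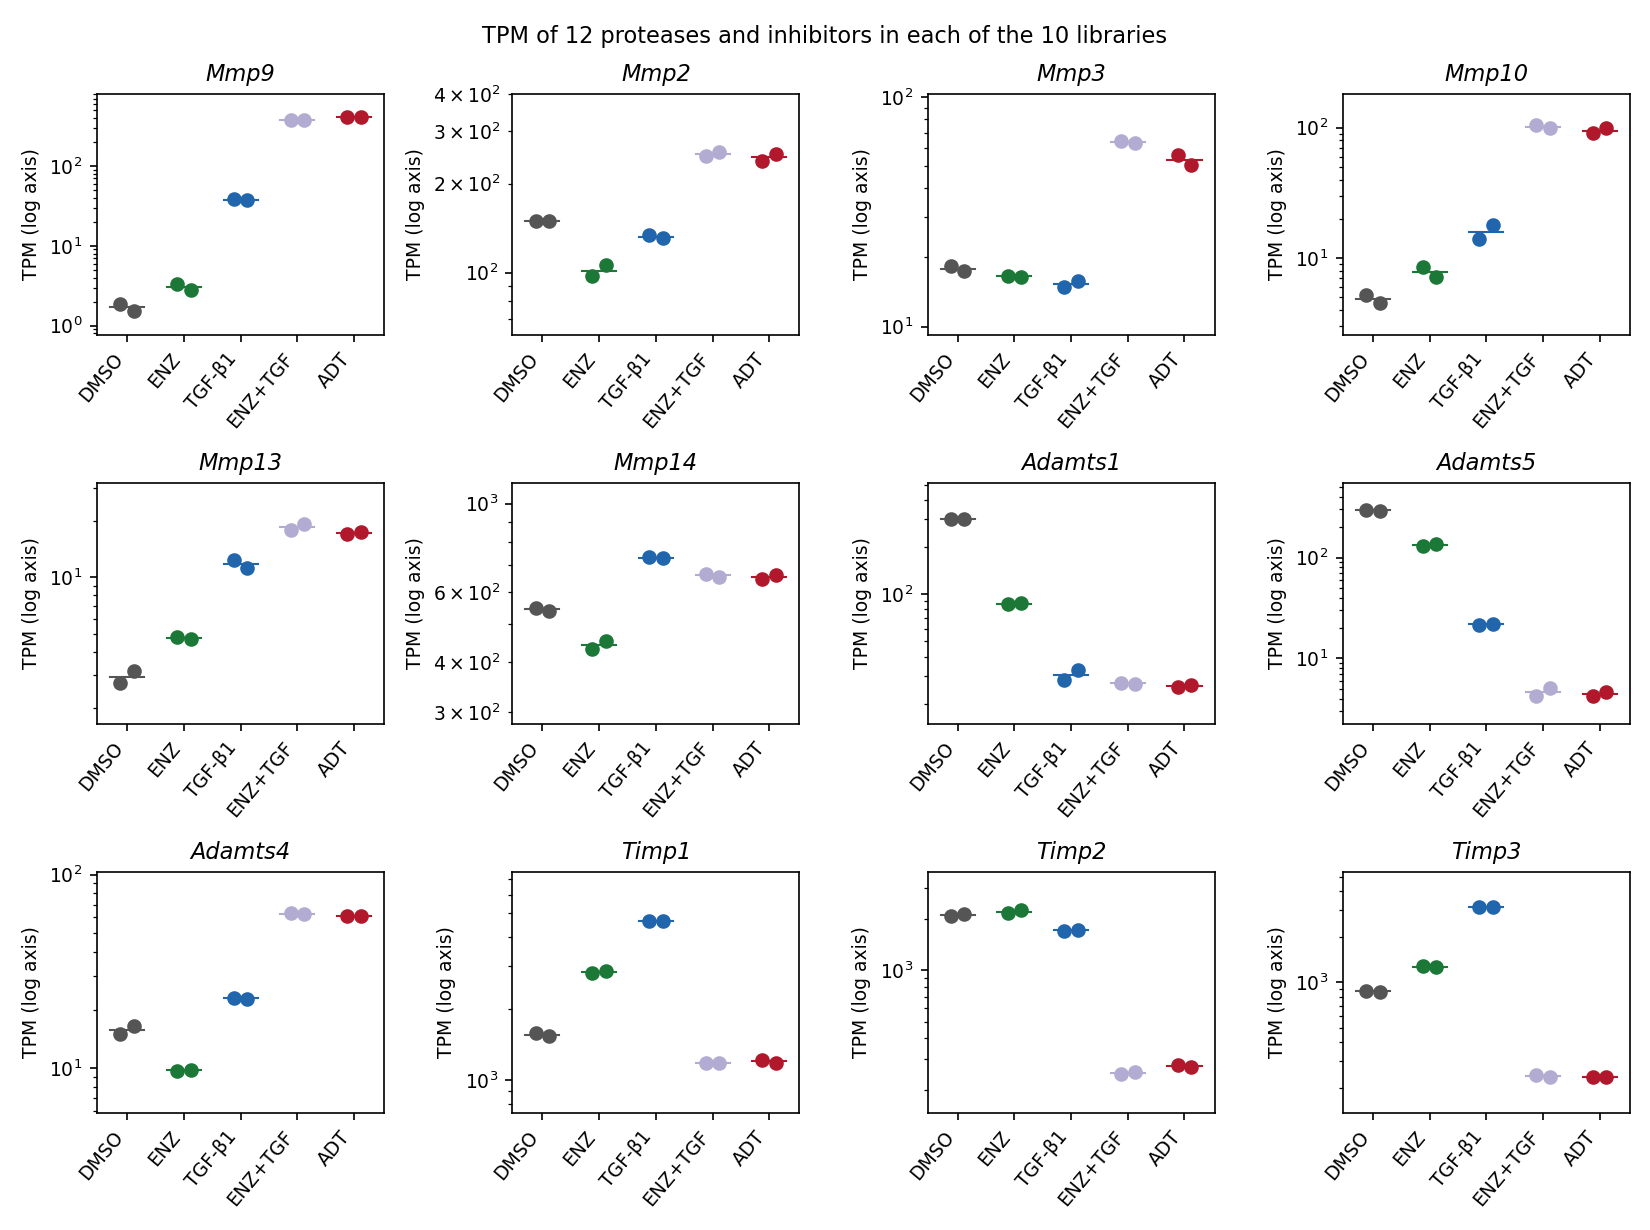
TPM on a log axis of 12 members in each library (points) with group means (lines). Mmp9 rises from under 2 TPM with DMSO to over 400 TPM in the ADT libraries, Adamts5 falls from near 295 to near 4.44 TPM, and Timp1 and Timp3 peak with TGF-β1.

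Stromelysins cut proteoglycans, laminin and other matrix proteins and can activate other MMP precursors. Mmp10, stromelysin 2, was 5.21 and 4.56 TPM with DMSO, 8.62 and 7.16 TPM with enzalutamide, 13.9 and 17.9 TPM with TGF-β1, and 90.7 and 98.6 TPM in the ADT libraries. It followed the same order of groups as Mmp9, with log2 differences from DMSO of 0.59 (SE 0.124, adjusted p = 0.010), 1.52 (SE 0.124, adjusted p = 2.0e-05) and 4.02 (19.4-fold, SE 0.124, adjusted p = 2.1e-08). The enzalutamide call of Mmp10 was lost without DMSO library 2 (0.51, adjusted p = 0.064) or without enzalutamide library 1 (0.47, adjusted p = 0.064). Mmp3, stromelysin 1, did not share the rise with TGF-β1: it was 18.4 and 17.4 TPM with DMSO, 16.6 and 16.5 TPM with enzalutamide, 14.9 and 15.8 TPM with TGF-β1, and 55.9 and 50.7 TPM in the ADT libraries. Of these 4 groups only the ADT libraries stood well above the rest (2.98-fold over DMSO, log2 1.52, SE 0.0559, adjusted p = 5.9e-08). Its fall with TGF-β1 (log2 -0.21, adjusted p = 0.014) was not called under median-of-ratios scaling (-0.11, adjusted p = 0.17), or without DMSO library 1 or TGF-β1 library 1 (-0.17 and adjusted p = 0.082 in each case). Mmp11, stromelysin 3, which acts weakly on matrix and is activated inside the cell by furin, rose with enzalutamide, from 40.7 and 43.2 to 54.7 and 52.1 TPM (log2 0.34, adjusted p = 0.00076), and fell with TGF-β1 to 32.4 and 32.2 TPM (log2 -0.37, adjusted p = 0.00016). In the ADT libraries it was 35.2 and 35.7 TPM (log2 -0.24, adjusted p = 0.0010), a call lost under median-of-ratios scaling (-0.074, adjusted p = 0.14).

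Mmp13, the main collagenase of mice, was 2.75 and 3.15 TPM with DMSO, 4.80 and 4.70 TPM with enzalutamide, 12.4 and 11.2 TPM with TGF-β1, and 16.9 and 17.3 TPM in the ADT libraries. It rose 1.61-fold with enzalutamide (log2 0.54, adjusted p = 0.0015) and 4.01-fold with TGF-β1 (log2 1.70, SE 0.0771, adjusted p = 6.8e-07), and was 5.81-fold higher in the ADT group (log2 2.20, SE 0.0771, adjusted p = 4.5e-08). Mmp9, Mmp10 and Mmp13 were the Mmp genes called higher in all 3 of these comparisons, which share the DMSO libraries. Mmp12, the metalloelastase best known from macrophages, went the other way. It fell from 7.87 and 6.33 TPM with DMSO to 2.98 and 3.10 TPM with TGF-β1 (2.34-fold lower, adjusted p = 0.00080) and was 5.01 and 4.14 TPM in the ADT libraries (log2 -0.54, adjusted p = 0.012). The ADT call of Mmp12 was lost without DMSO library 1 (-0.40, adjusted p = 0.084) or ADT library 2 (-0.42, adjusted p = 0.079). Macrophage and leukocyte markers were lower there as well, as given above, and their part was not tested. Mmp3, Mmp10, Mmp12 and Mmp13 belong to the cluster of neighbouring Mmp genes known on a single mouse chromosome, and their neighbours Mmp1a, Mmp1b, Mmp7, Mmp8, Mmp20 and Mmp27 were all below the level tested.

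Membrane-anchored MMPs act at the cell surface. Mmp14, the main activator of pro-MMP2 and the most abundant Mmp RNA in every group, was 547 and 539 TPM with DMSO, 433 and 453 TPM with enzalutamide, 733 and 729 TPM with TGF-β1, and 648 and 662 TPM in the ADT libraries. It fell with enzalutamide (log2 -0.29, SE 0.0239, adjusted p = 7.4e-05) and was higher with TGF-β1 (log2 0.43, adjusted p = 2.2e-06) and in the ADT group (log2 0.27, adjusted p = 1.4e-05), each change being under 1.5-fold. The other 5 tested members of this class (Mmp15, Mmp16, Mmp17, Mmp23 and Mmp24) were lower than DMSO both with TGF-β1 and in the ADT group. Mmp23 was 100.3 and 106 TPM with DMSO, 67.6 and 64.9 TPM with enzalutamide, 48.9 and 46.5 TPM with TGF-β1, and 17.2 and 14.7 TPM in the ADT libraries. It thus descended without overlap, to 6.46-fold lower in the ADT group (log2 -2.62, SE 0.0674, adjusted p = 7.7e-09). Mmp16, a membrane MMP like Mmp14, did the same, from 25.8 and 25.7 TPM with DMSO through 11.7 and 13.7 TPM and 7.59 and 7.80 TPM to 3.48 and 3.71 TPM (7.15-fold lower in the ADT group, log2 -2.54, SE 0.0802, adjusted p = 2.5e-08). Mmp17 and Mmp24 fell less, to means of 3.35 and 7.31 TPM in the ADT group from 7.92 and 9.83 TPM. Mmp15 was low throughout, at a mean of 2.71 TPM with DMSO and 0.441 and 0.558 TPM (13 and 17 reads) in the ADT libraries.

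Of the other Mmp genes, Mmp19, a secreted enzyme active on basement membrane, fell from 69.7 and 73.8 TPM with DMSO to 55.5 and 54.6 TPM with enzalutamide (log2 -0.38, adjusted p = 0.00036) and 37.3 and 36.9 TPM with TGF-β1 (log2 -0.93, adjusted p = 5.5e-07). It was 33.9 and 34.7 TPM in the ADT libraries (log2 -1.04, SE 0.0405, adjusted p = 8.2e-08). Mmp28, epilysin, was not called with enzalutamide (means of 7.16 TPM with DMSO and 7.74 TPM with enzalutamide, adjusted p = 0.59). It fell to a mean of 2.87 TPM with TGF-β1 (log2 -1.08, adjusted p = 8.9e-05) and was 2.02 TPM in the ADT group (log2 -1.44, adjusted p = 6.1e-06).

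Adamts1 and Adamts5, neighbouring genes for proteases of versican and aggrecan, made up 82.4% ± 0.245 (SD, n = 2) of all Adamts RNA with DMSO and 13.0% ± 0.243 in the ADT group. Adamts5 was 299 and 291 TPM with DMSO, 131 and 136 TPM with enzalutamide, 21.4 and 22.1 TPM with TGF-β1, and 4.20 and 4.67 TPM in the ADT libraries (232 and 267 reads). Each group lay below the one before. The falls were 2.22-fold with enzalutamide (log2 -1.14, SE 0.0698, adjusted p = 1.6e-05) and 13.6-fold with TGF-β1 (log2 -3.70, SE 0.0698, adjusted p = 6.3e-09), and the ADT group was 66.5-fold lower (log2 -5.77, SE 0.0698, adjusted p = 1.6e-10). Adamts1, which also binds the vascular growth factor VEGF, was 304 and 303 TPM with DMSO, 86.8 and 87.5 TPM with enzalutamide, 28.5 and 32.8 TPM with TGF-β1, and 25.4 and 26.4 TPM in the ADT libraries. It fell 3.48-fold with enzalutamide (log2 -1.79, SE 0.0577, adjusted p = 3.5e-07), the largest fall of any tested member there, and 9.91-fold with TGF-β1 (log2 -3.27, adjusted p = 4.2e-09), and was 11.7-fold lower in the ADT group (log2 -3.50, adjusted p = 7.9e-10). Unlike Adamts5, its TGF-β1 and ADT values lay close together.

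Adamts4, the other classical aggrecanase, went the opposite way outside the enzalutamide group. It was 14.9 and 16.4 TPM with DMSO, 9.68 and 9.72 TPM with enzalutamide, 23.1 and 22.8 TPM with TGF-β1, and 61.2 TPM in each ADT library. It fell with enzalutamide (log2 -0.64, SE 0.0471, adjusted p = 4.6e-05), rose with TGF-β1 (log2 0.52, SE 0.0471, adjusted p = 3.6e-05) and was 3.91-fold higher in the ADT group (log2 1.90, SE 0.0471, adjusted p = 6.4e-09). In the ADT group Adamts4 RNA thus exceeded that of Adamts1 and Adamts5, while with DMSO it was far below both. Adamts9, a versican protease, fell with enzalutamide from 3.85 and 4.12 to 1.76 and 2.08 TPM (log2 -0.77, adjusted p = 0.0050), was 0.505 and 0.279 TPM with TGF-β1 (27 and 15 reads, log2 -1.85, adjusted p = 1.2e-05), and 1.44 and 1.12 TPM in the ADT libraries (log2 -1.13, adjusted p = 0.00010).

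The procollagen N-proteinases Adamts2, Adamts3 and Adamts14 remove the amino-terminal propeptide of fibrillar procollagens. Adamts14 was 13.3 and 13.0 TPM with DMSO, 12.7 and 13.5 TPM with enzalutamide (adjusted p = 0.98), 10.1 and 9.77 TPM with TGF-β1, and 49.0 and 50.2 TPM in the ADT libraries. It fell with TGF-β1 (log2 -0.38, adjusted p = 0.00027) and was 3.77-fold higher in the ADT group (log2 1.84, SE 0.0475, adjusted p = 8.0e-09). Adamts2 went from 29.5 and 30.5 TPM with DMSO to 21.3 and 20.4 TPM with enzalutamide (log2 -0.50, adjusted p = 0.0011), 12.4 and 13.7 TPM with TGF-β1 (log2 -1.14, adjusted p = 2.9e-06), and 13.0 and 12.3 TPM in the ADT libraries (log2 -1.18, adjusted p = 8.0e-07). Adamts3 fell in the same 3 comparisons, from a mean of 6.29 TPM with DMSO to 2.65, 1.58 and 2.99 TPM. So with DMSO Adamts2 was the most abundant of these proteinases and in the ADT group it was Adamts14.

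Adamts7 and Adamts12, related enzymes that cut the cartilage matrix protein COMP, differed from each other. Adamts7 was 6.68 and 5.93 TPM with DMSO, 5.64 and 5.03 TPM with enzalutamide (adjusted p = 0.11), 4.57 and 4.10 TPM with TGF-β1 (log2 -0.45, adjusted p = 0.0021), and 18.5 and 19.5 TPM in the ADT libraries (3.02-fold higher than with DMSO, log2 1.46, SE 0.0831, adjusted p = 8.5e-07). Adamts12 was highest with TGF-β1: 17.6 and 18.7 TPM with DMSO, 14.3 and 15.4 TPM with enzalutamide, 45.7 and 45.5 TPM with TGF-β1 (2.52-fold, log2 1.29, SE 0.0648, adjusted p = 1.2e-06), and 20.1 and 22.6 TPM in the ADT libraries. The small enzalutamide fall of Adamts12 (log2 -0.27, adjusted p = 0.019) was lost without DMSO library 2 (-0.23) or enzalutamide library 1 (-0.22, adjusted p = 0.10 in each case), and its small ADT rise (log2 0.22, adjusted p = 0.013) without DMSO library 1 (0.18, adjusted p = 0.080) or ADT library 2 (0.14, adjusted p = 0.089). Adamts6 and Adamts10, which are linked to fibrillin microfibrils, moved little. Adamts6 fell with enzalutamide from a mean of 20.2 to 14.8 TPM (log2 -0.42, adjusted p = 0.00046) and was 20.8 TPM with TGF-β1 and 21.6 TPM in the ADT group, neither called. Of the 3 comparisons, Adamts10 was called in that with TGF-β1 (15.5 against 13.1 TPM, log2 0.23, adjusted p = 0.016), and that was lost without DMSO library 1 (0.23, adjusted p = 0.064), DMSO library 2 (0.24, adjusted p = 0.055) or TGF-β1 library 2 (0.17, adjusted p = 0.10). Under median-of-ratios scaling Adamts6 was called higher with TGF-β1 (0.15) and in the ADT group (0.25), and Adamts10 in the ADT group (0.17).

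The 4 tested Adamts-like genes were all lower in the ADT group than with DMSO. Adamtsl1 was 16.4 TPM in each DMSO library, 7.96 and 8.97 TPM with enzalutamide, 4.33 and 4.38 TPM with TGF-β1, and 1.16 and 1.28 TPM in the ADT libraries. Its groups descended without overlap, to 13.5-fold lower in the ADT group (log2 -2.97, SE 0.0847, adjusted p = 1.4e-08). Adamtsl4, a gene of the fibres that hold the eye lens, was not called with enzalutamide (adjusted p = 0.42), fell with TGF-β1 (11.1 to 5.93 TPM, log2 -0.81, adjusted p = 0.00037) and was 2.89 TPM in the ADT group (log2 -1.64, adjusted p = 2.1e-06). Adamtsl5 was called in the ADT group (21.8 against 6.81 TPM, log2 -1.55, adjusted p = 4.7e-07) but with neither single agent. Adamtsl3 was near 4.25 to 4.45 TPM in those 3 groups against 6.72 TPM with DMSO. Its enzalutamide call (log2 -0.56, adjusted p = 0.018) was lost without DMSO library 1 (-0.60, adjusted p = 0.060), DMSO library 2 (-0.53, adjusted p = 0.090) or enzalutamide library 1 (-0.43, adjusted p = 0.10), and its TGF-β1 call (log2 -0.50, adjusted p = 0.014) without DMSO library 2 (-0.47, adjusted p = 0.067) or TGF-β1 library 1 (-0.41, adjusted p = 0.082).

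**Figure D4:**
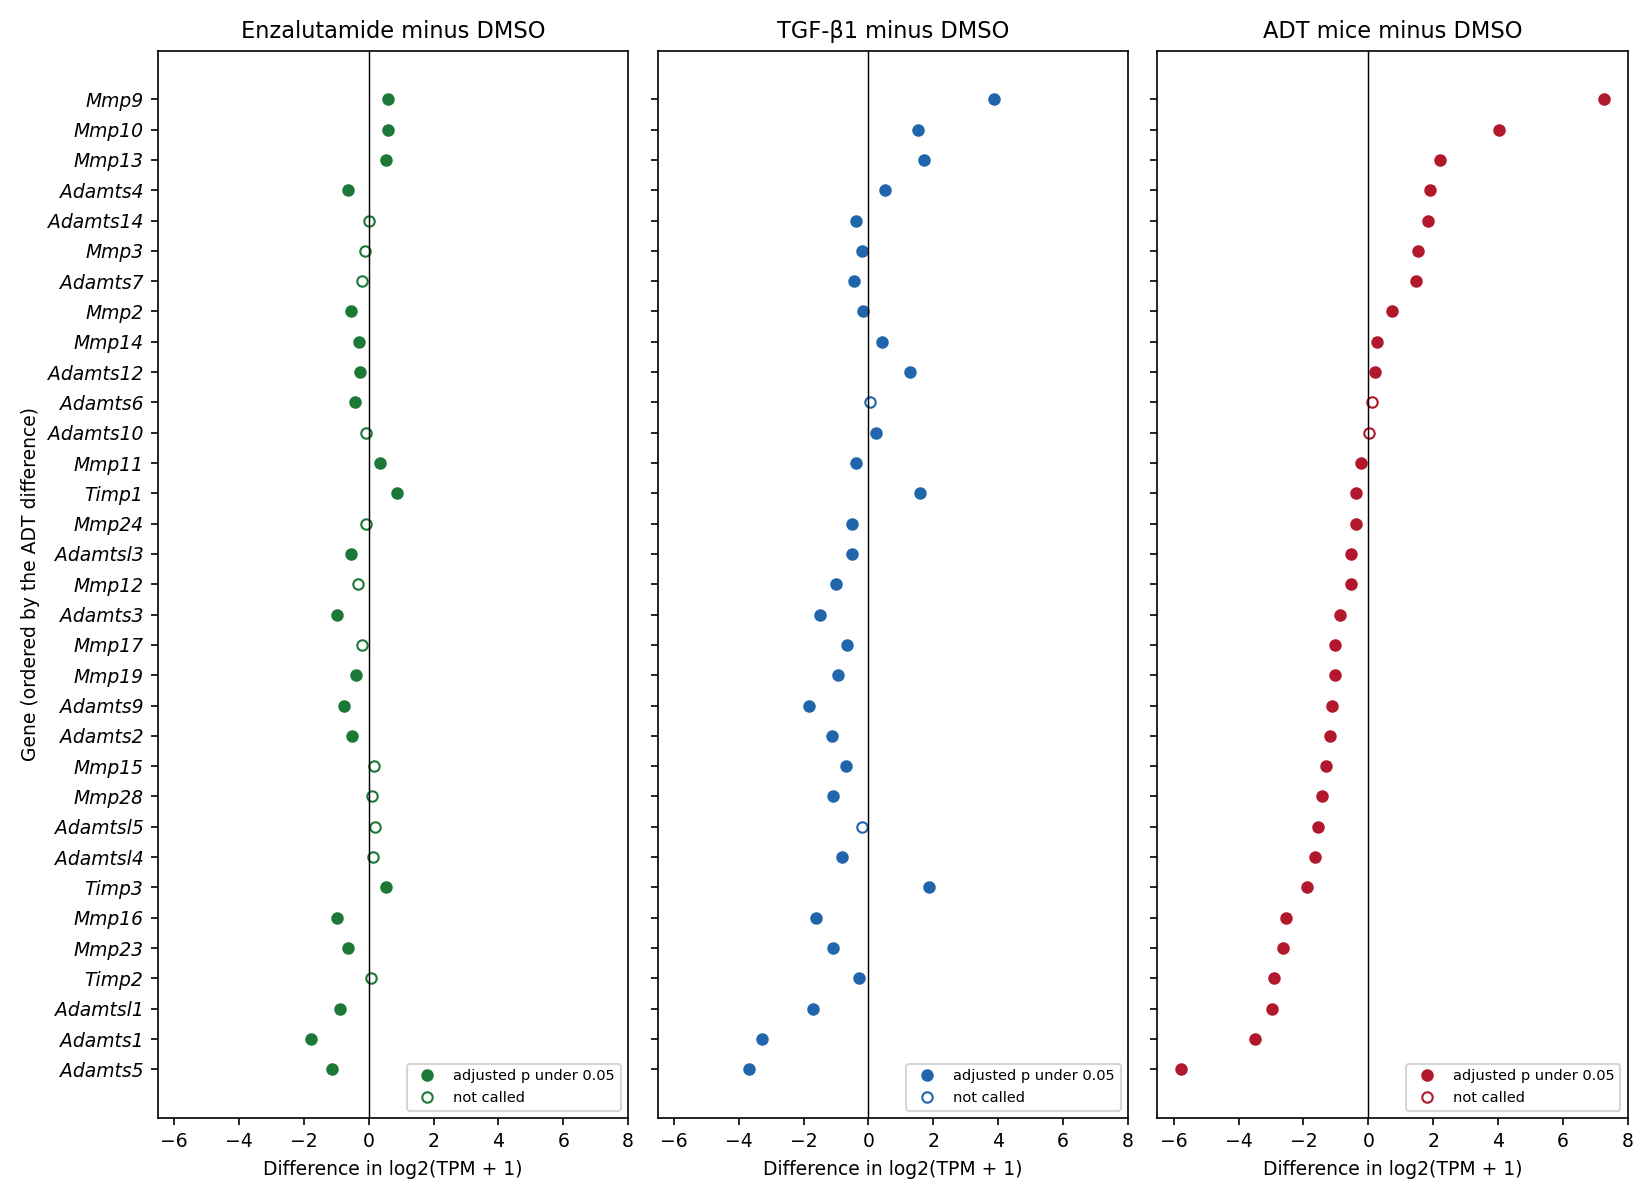
Differences in log2(TPM + 1) from DMSO for the 33 tested members with enzalutamide, with TGF-β1 and in the ADT mice; bars are standard errors (mostly shorter than the points) and filled points have an adjusted p under 0.05. Genes are ordered by the ADT difference, from Mmp9 at 7.26 to Adamts5 at -5.77; Timp1 and Timp3 lie right of zero in the first 2 panels and left of it in the third.

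For these genes the libraries labelled with both agents lay close to the ADT libraries. None of the 33 members was called between them by limma (0.0135% of all genes were called). At an unadjusted p under 0.05 there were 5 of the 33 members, and 1220 of all genes (8.23%). Mmp9 was 374 TPM in each library labelled with both agents against 409 and 410.2 TPM, Timp3 was 242 and 236 TPM against 234 and 237 TPM, and Adamts5 was 4.29 and 5.06 TPM against 4.20 and 4.67 TPM. The largest differences on the log2 scale were those of Mmp3 (0.25, SE 0.0559, adjusted p = 0.40) and Mmp12 (0.25, SE 0.153, adjusted p = 0.73). A p that misses the threshold does not show that the groups are the same. Against TGF-β1 alone, 13 members were higher and 16 lower in the libraries labelled with both agents (39.4% and 48.5%; 33.4% and 38.2% of all genes, 71.6% in either direction), with Mmp9 9.86-fold higher (log2 3.27) and Timp3 13.3-fold lower (log2 -3.73). Against DMSO these libraries had 11 members higher and 21 lower (33.3% and 63.6%; 31.5% and 42.7% of all genes, 74.2% in either direction), and 30 members had the same call there as in the ADT comparison, which uses the same DMSO libraries. The difference that enzalutamide made with TGF-β1 minus that without it was above 0 in 17 called members and below 0 in 13 (51.5% and 39.4%; 30.7% and 33.1% of all genes, 63.7% in either direction). Whether these values describe the treatment on the label was not tested.

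**Figure D5:**
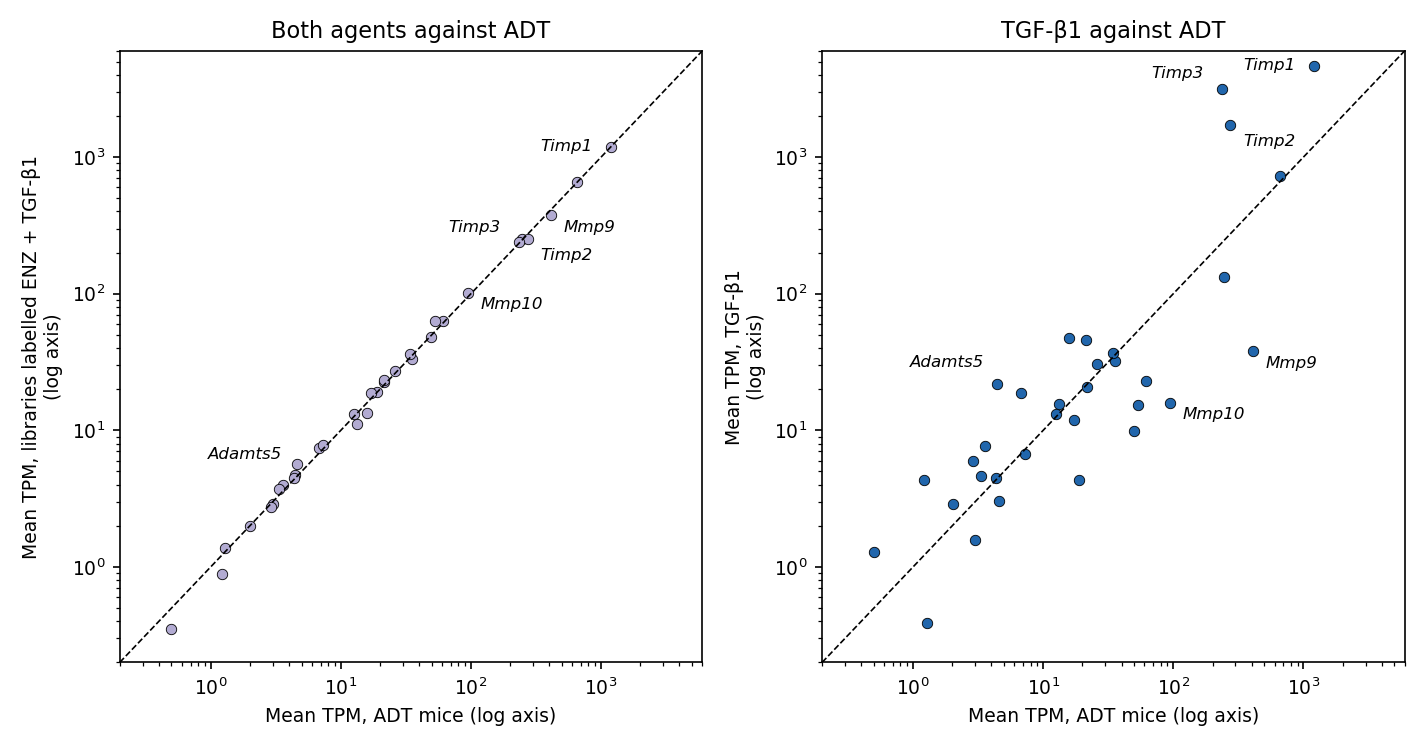
Mean TPM of the 33 tested members in the libraries labelled with both agents (left) and in the TGF-β1 libraries (right) against the ADT mice, on log axes with the line of equality dashed. The left points lie close to the line; on the right Timp1, Timp2 and Timp3 lie above it and Mmp9 and Mmp10 below it.

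Among 18 genes for other inhibitors, activators and receptors of these proteases, 16 were tested. With enzalutamide 5 rose and 9 fell, with TGF-β1 7 rose and 8 fell, and in the ADT group 8 were higher and 7 lower than with DMSO, where 9.83% and 15.2%, 19.0% and 34.6%, and 31.5% and 43.3% of all genes were called higher and lower in these comparisons. Dividing the DMSO values of the altered genes by 0.3 made these 3 and 10, 6 and 9, and 7 and 8. Furin, the convertase that activates MMP14 and many ADAMTS precursors, was higher with enzalutamide as deposited (log2 1.40) and -0.30 after the division, so its direction depends on those DMSO values. Pcsk6, another convertase, was 57.8 TPM with DMSO and 0.320 TPM in the ADT group (log2 -5.48, SE 0.0748, adjusted p = 2.9e-10), and Serpine2, an inhibitor of serine proteases, 255 and 9.61 TPM (log2 -4.59, SE 0.0472, adjusted p = 6.9e-11). Reck, a membrane-anchored inhibitor of MMPs that was singled out after its values were seen, was 34.8 and 31.5 TPM with DMSO, 16.9 and 18.6 TPM with TGF-β1 (log2 -0.86), and 3.23 and 3.28 TPM in the ADT libraries (log2 -3.00).

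All 10 genes of a chosen list from the ADAM family, relatives of the ADAMTS enzymes of which only some shed membrane proteins, were tested. In the ADT group 8 of them were lower than with DMSO (43.3% of all genes were), with Adam23 at 47.5 and 1.06 TPM (log2 -4.56) and Adam9 at 408 and 135 TPM (log2 -1.58), and with TGF-β1 2 rose, Adam12 among them (log2 0.66), and 7 fell (19.0% and 34.6% of all genes). Of 11 tested genes for other matrix proteases and processing factors, 4 were higher and 7 lower in the ADT group (31.5% and 43.3% of all genes), with Htra1, a secreted serine protease, rising from 126 to 491 TPM (log2 1.96). With TGF-β1 5 rose and 5 fell (19.0% and 34.6% of all genes), with Tll1, a procollagen C-proteinase, at 140.5 against 55.7 TPM (log2 1.32). Of 17 tested matrix substrates, 6 were higher and 8 lower in the ADT group, shares near the 31.5% and 43.3% of all genes. Of the collagen genes among them, Col4a1 (log2 -1.57) and Col4a2 (log2 -1.79) were lower and Col1a2 was higher (log2 0.57). Of 14 tested AP-1, ETS and RUNX transcription factors, 11 were higher and 2 lower in the ADT group (31.5% and 43.3% of all genes). Junb was 354 TPM there and 47.0 TPM with DMSO as deposited (log2 2.89), and the difference was 1.17 after the division by 0.3. Etv4 rose from 14.3 to 34.8 TPM with TGF-β1 (log2 1.23) and was 96.9 TPM in the ADT group (log2 2.68). Fos fell from 19.5 to 4.65 TPM with enzalutamide (log2 -1.86) and 2.38 TPM with TGF-β1 (log2 -2.60). The 2 lower genes in the ADT group were Fos, at 5.13 TPM, and Fosl2, at 72.9 TPM against 186 TPM with DMSO.

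The 18 members that were not tested stayed low in all 10 libraries, with the highest single value 1.17 TPM, that of Mmp1b in a library labelled with both agents (16 reads or fewer in every library). They are Adamts8, Adamts13, Adamts15 to Adamts20, Adamtsl2, Mmp1a, Mmp1b, Mmp7, Mmp8, Mmp20, Mmp21, Mmp25, Mmp27 and Timp4. Mmp1a and Mmp1b are related genes, and whether reads were split between them was not tested. Timp4, the inhibitor known from heart and fat, was listed at 0 in 8 of 10 libraries and reached 0.115 TPM. Matrilysin, Mmp7, an enzyme mostly of epithelial cells, was listed at 0 in 7 of 10 and reached 0.152 TPM. Mmp25, a membrane MMP known from leukocytes, averaged 0.0665 TPM with DMSO and 0.876 TPM in the ADT group, and Adamts15 0.508 and 0.0228 TPM, which are given as values only.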

How the data were processed

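The genes, the roles by which they are grouped and the other lists were chosen with earlier results of these data known. RNA was extracted with Trizol and libraries were made with the NEBNext Ultra kit, per the labels' protocols. The deposited fibroblast table gives TPM per gene symbol, per the file headers. HISAT2, HTSeq, DESeq2 and the builds mm10 and hg19 are named without a role, per the submitters' processing notes. The RPKM values of a human cell line were not used here, nor were the 2 Sox4-labelled columns, of whose values 11.82% to 11.96% were whole reads at the depth of the ADT columns. Read numbers were recovered from the steps of the TPM values of 17519 genes (tolerance 0.05 reads; at least 99.84% of each total). The DMSO columns total 986375 and 986203 TPM as deposited, and 1000220 and 1000208 after the division of 57 genes by 0.3.

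limma 3.58.1 in R 4.3.3 was fitted to log2(TPM + 1) of 10 libraries in 5 groups with a mean-variance trend and no block, over the 14828 genes at 1 TPM or more in at least 2 libraries, with 5 residual degrees of freedom. P-values are two-sided and adjusted by Benjamini-Hochberg over all genes within each of 7 comparisons. The fit was also run on simulated data with far fewer changed genes than were called here, so no conclusion is drawn from that run. Members with a mean of 1 TPM or more in a group could be named, and of each other list up to 4 called genes with the smallest p. Some items that the rules name are not reported here. Alternatives were a pseudocount of 0.1, no filter, median-of-ratios scaling, a replicate block, each library left out, the Sox4-labelled columns included and the libraries labelled with both agents left out; dividing DMSO values by 0.3 was added after seeing the data. Deviations of same-numbered libraries correlated at -0.0277 to 0.0928, so the numbers were not taken as pairs.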

Additional observations from a re-analysis of the deposited data

Results flagged for a closer look

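For 30 of the 33 tested members (90.9%; 63.7% of all genes), the enzalutamide difference in the presence of TGF-β1 differed from that in its absence, by the interaction term of the limma fit. These values rest on the libraries labelled with both agents, which resemble the ADT libraries, and are given as log2 values only. The largest negative values were those of the inhibitors Timp3 (-4.27), Timp1 (-2.85) and Timp2 (-2.84), followed by Adamtsl5 (-1.42), Mmp23 (-1.14), Adamtsl4 (-1.02), Mmp15 (-0.91), Adamts5 (-0.87), Adamts12 (-0.73), Adamtsl1 (-0.62), Mmp28 (-0.47), Adamts10 (-0.37) and Mmp11 (-0.31). The positive values were those of Mmp9 (2.68), Adamts14 (2.18), Adamts7 (2.12), Mmp3 (2.08), Adamts4 (2.05), Mmp10 (2.02), Adamts1 (1.61), Adamts3 (1.59), Adamts9 (1.55), Mmp2 (1.47), Mmp12 (1.05), Adamts6 (0.58), Adamtsl3 (0.57), Adamts2 (0.51), Mmp19 (0.34), Mmp24 (0.29) and Mmp14 (0.15). The calls of Adamtsl3, Mmp24 and Mmp28 were lost without a filter on low values (adjusted p = 0.067, 0.057 and 0.073) and without single libraries: DMSO library 1 (0.61, 0.25 and -0.46 for the 3 genes in that order), and, for 1 or 2 of them each, DMSO library 2, enzalutamide library 1 or 2, TGF-β1 library 1 or 2, or library 1 or 2 labelled with both agents, where the values lay between 0.42 and 0.54 for Adamtsl3, 0.24 and 0.26 for Mmp24, and -0.48 and -0.37 for Mmp28.

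In the Sox4-labelled columns, which no comparison uses, Adamts8, a proteoglycan-cleaving enzyme, was 1.87 and 1.95 TPM, against at most 0.544 TPM in the other 10 fibroblast libraries. Most values of those columns are not whole reads.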

How the results depend on the processing

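The counts of members called higher and lower stayed within 1.5 times in all 7 comparisons under every alternative run. With each library left out in turn, the members called higher numbered 5 to 6 with enzalutamide, 8 to 9 with TGF-β1 and 9 to 10 in the ADT group, and the members called lower 13 to 15, 20 to 21 and 20 to 21. With the replicate number as a block the counts were 6 and 15, 9 and 22, and 10 and 21, and the block changed no member's call. Of 2475 member differences recomputed, 2406 kept their side of the threshold, 64 lost the call and 5 gained it. None that was called reversed, and 30 of the 2406, none of them called, changed sign. Leaving out 1 of 2 libraries leaves a lone library that is assumed to vary like the other groups. In the comparison of the libraries labelled with both agents with TGF-β1 alone, the calls of Adamts1 (-0.17), Adamts6, Mmp17, Mmp24 and Mmp28 were lost without 1 library; without TGF-β1 library 2 they were -0.075, 0.11, -0.22, 0.17 and -0.38, and without library 2 labelled with both agents -0.17, 0.14, -0.20, 0.17 and -0.27. Further losses there were Adamts1 (-0.18) and Mmp24 (0.24) without library 1 labelled with both agents, and Mmp17 (-0.29) and Mmp28 (-0.36) without TGF-β1 library 1. Against DMSO, the libraries labelled with both agents lost the calls of Adamts10 and Adamtsl3 without DMSO library 2 (-0.21 and -0.46) or without their own library 2 (-0.19 and -0.34). Median-of-ratios scaling ended the calls of Adamts10 (-0.072) and Mmp24 (-0.15) against DMSO there, and of Adamts1 (-0.12) and Mmp17 (-0.22) against TGF-β1; Mmp17 was also not called without a filter on low values (-0.26). Depth limits the lowest members: tested ones had 10 to 88890 reads in a library.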
